A study of Mus musculus with 16 samples.

Results

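The matrix metalloproteinases (Mmp), their tissue inhibitors (Timp), the membrane-anchored ADAM proteases (Adam) and the secreted ADAMTS proteases (Adamts) were followed across 4 cell populations sorted from mouse liver. Members were the protein-coding genes whose symbol is one of these 4 stems followed by a number, with or without a letter. The count table held 78 of them among 48795 genes: 22 Mmp, 4 Timp, 33 Adam and 19 Adamts genes. Of these, 13 had a count of 0 in all 16 libraries, 10 more never reached a count of 20 in any library, and 36 averaged at least 5 CPM, the count scaled to library size, in some population.

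The 16 RNA-sequencing libraries came from 4-week-old mice of a series on macrophages that enter the liver early in hepatorenal fibrocystic disease. Mice were of the BALB/c or the C57BL/6 strain and either carried Ift88Orpk, a hypomorphic allele of the cilia gene Ift88 that is used as a model of the disease, or were wild type (WT). From each of the 4 combinations (BALB/c Ift88Orpk, BALB/c WT, C57BL/6 Ift88Orpk, C57BL/6 WT), 4 populations were sorted from collagenase-digested liver: cells binding the lectin DBA, labelled cholangiocytes, neutrophils, Ly6Chi infiltrating macrophages and Ly6Clo infiltrating macrophages. Each library pooled equal amounts of RNA of 6 to 8 mice, males and females in equal number, and each combination had 1 library per population. Every error below is therefore a spread between pools of different strain or genotype, and mice within a pool could not be compared.

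MMPs are zinc endopeptidases made as inactive proenzymes, and between them they cut collagens, gelatin, elastin, laminin and many soluble proteins. TIMPs occupy the active site of MMPs, and TIMP3 also inhibits several ADAM and ADAMTS enzymes. ADAM10 and ADAM17 release the outer parts of membrane proteins such as Notch receptors and TNF, whereas ADAM11, ADAM22 and ADAM23 lack a working catalytic site and act in adhesion. ADAMTS1, ADAMTS4, ADAMTS5, ADAMTS8, ADAMTS9 and ADAMTS15 cut large proteoglycans such as versican and aggrecan, ADAMTS2, ADAMTS3 and ADAMTS14 trim procollagens, and ADAMTS13 cuts von Willebrand factor. In liver these enzymes are best known for matrix turnover during injury, fibrosis and its resolution, with neutrophil granules as a store of MMP8, MMP9 and MMP25.

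Promoters are shown for 3 members that were higher in neutrophils than in either macrophage population (Mmp8, Adam8, Mmp25) and for 3 whose level was highest in the DBA-sorted libraries (Adamts1, Timp3, Adam23), because these genes carry the main contrast of the populations. The sequences are from RefSeq on build GRCm38.p6, run from 250 bases before to 50 bases after the annotated start, and are written 5′ to 3′ on the gene's strand. Capitals mark matches, on either strand, to 5 short motifs. The C/EBP-type motif was searched as TTGCNNAA and the AP-1 motif as TGANTCA. The PU.1-type motif was searched as GAGGAA. The TATA box was searched with the letters TATAAA. The GC box was searched as GGGCGG.
Mmp8, chr9:7558179-7558478, plus strand: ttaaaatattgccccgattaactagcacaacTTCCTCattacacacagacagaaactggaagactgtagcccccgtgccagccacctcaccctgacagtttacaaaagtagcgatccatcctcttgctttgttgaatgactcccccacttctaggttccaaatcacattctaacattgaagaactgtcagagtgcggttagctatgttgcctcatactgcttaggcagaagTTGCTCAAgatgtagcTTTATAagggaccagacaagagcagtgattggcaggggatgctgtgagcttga
Adam8, chr7:139992513-139992812, minus strand: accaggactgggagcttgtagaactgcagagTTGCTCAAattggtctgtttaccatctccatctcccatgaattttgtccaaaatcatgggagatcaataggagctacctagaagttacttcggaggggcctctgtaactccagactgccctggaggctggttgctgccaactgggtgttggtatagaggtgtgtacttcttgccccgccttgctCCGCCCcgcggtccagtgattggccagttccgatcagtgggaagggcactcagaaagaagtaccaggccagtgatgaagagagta
Mmp25, chr17:23645220-23645519, minus strand: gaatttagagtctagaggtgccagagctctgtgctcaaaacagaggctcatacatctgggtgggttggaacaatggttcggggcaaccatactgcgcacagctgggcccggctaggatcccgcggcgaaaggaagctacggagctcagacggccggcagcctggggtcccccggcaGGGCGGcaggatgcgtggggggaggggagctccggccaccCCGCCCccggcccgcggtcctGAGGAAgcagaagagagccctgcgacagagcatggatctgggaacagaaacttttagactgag
Adamts1, chr16:85803064-85803363, minus strand: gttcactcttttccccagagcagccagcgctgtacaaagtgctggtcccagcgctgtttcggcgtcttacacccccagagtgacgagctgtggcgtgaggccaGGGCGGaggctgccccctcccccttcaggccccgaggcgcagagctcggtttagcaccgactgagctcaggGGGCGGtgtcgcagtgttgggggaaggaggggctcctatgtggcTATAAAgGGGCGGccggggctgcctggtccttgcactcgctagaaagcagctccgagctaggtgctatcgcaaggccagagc
Timp3, chr10:86300162-86300461, plus strand: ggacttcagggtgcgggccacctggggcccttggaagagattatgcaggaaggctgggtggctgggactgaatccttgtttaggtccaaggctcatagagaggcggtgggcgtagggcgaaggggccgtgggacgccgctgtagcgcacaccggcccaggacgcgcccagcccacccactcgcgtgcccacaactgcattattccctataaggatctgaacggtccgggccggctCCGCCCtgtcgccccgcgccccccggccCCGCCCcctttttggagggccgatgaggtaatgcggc
Adam23, chr1:63445641-63445940, plus strand: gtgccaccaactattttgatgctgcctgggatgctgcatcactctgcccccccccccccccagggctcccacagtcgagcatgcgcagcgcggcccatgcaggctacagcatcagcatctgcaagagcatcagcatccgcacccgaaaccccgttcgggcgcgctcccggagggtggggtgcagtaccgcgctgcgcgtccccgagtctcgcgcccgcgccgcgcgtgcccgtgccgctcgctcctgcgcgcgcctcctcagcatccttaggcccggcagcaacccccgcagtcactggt

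The C/EBP-type letters lay 19 bases before the start in Mmp8, where position -19 is the first base of the match, and at -219 in Adam8. The PU.1-type letters were found at -219 in Mmp8 and at -13 in Mmp25. GC boxes were found in Adam8, Mmp25, Adamts1 and Timp3, and TATA boxes in Mmp8 (at -3, on the other strand) and Adamts1 (at -32). The Adam23 window held none of the 5 motifs, none of the 6 windows held the AP-1 letters, and no matches overlapped in the windows shown. Over all 32851 promoters of the same length in the table, 10.8% held the C/EBP-type letters, 7.81% the AP-1 letters, 28.3% the PU.1-type letters, 13.6% the TATA box and 35.7% the GC box. Of the 48 members with a promoter in the table, 10, 12, 12, 13 and 23 held these motifs in the same order. A match describes the letters only.

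Libraries held between 10170795 and 26093556 reads counted to genes, with a median of 18679006. Levels are CPM scaled by TMM factors, and comparisons between genes use CPM per kilobase of merged exons. The DBA-sorted libraries did not look like cholangiocytes alone: 11 sinusoidal endothelial markers summed to 13870-22390 CPM there, against 732.8-1524 CPM for 12 cholangiocyte markers, and 12 stellate and fibroblast markers summed to 1904-9829 CPM. These libraries are therefore called DBA-sorted. The neutrophil libraries had 11 neutrophil markers at 17080-26220 CPM in sum, together with 2962-5934 CPM of 11 Ly6Chi monocyte markers and 726.8-3099 CPM of endothelial markers. They also held 4157-6510 CPM of 10 Ly6Clo monocyte markers, which summed to 3366-5268 CPM in Ly6Clo libraries. Hepatocyte markers, 12 in number, summed to 2527-5674 CPM in neutrophil and 2318-4563 CPM in DBA-sorted libraries. In Ly6Chi and Ly6Clo libraries they summed to 684.6-2126 and 533.5-1806 CPM. Neutrophil markers also summed to 500.5-1446 CPM in Ly6Chi libraries and to 430.3-1804 CPM in Ly6Clo libraries. In bulk libraries such as these, fewer cells of a type and less RNA per cell cannot be told apart. Ift88 itself was counted at 4.62-7.63 CPM in Ift88Orpk and 8.59-8.77 CPM in WT DBA-sorted libraries, but at 7.01-8.72 CPM in Ift88Orpk and 1.99-2.75 CPM in WT neutrophil libraries. In Ly6Chi libraries it stood at 3.85-5.85 CPM in Ift88Orpk and 1.44-4.31 CPM in WT, and in Ly6Clo libraries at 4.01-4.50 CPM in Ift88Orpk and 3.20-3.91 CPM in WT. The gene-level count of this hypomorphic allele was thus not lower than WT in leukocytes, and what it shows of the allele was not tested.

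Levels of many members differed between the populations, while Adam9, Adam10, Adam15 and Adamts10 were counted in all of them. The tally that follows goes by the highest mean, however small the difference. Of the 36 members that averaged at least 5 CPM, 18 had their highest mean in DBA-sorted libraries, 9 in neutrophils, 5 in Ly6Chi macrophages and 4 in Ly6Clo macrophages. MMP transcripts summed to 444 ± 141 CPM in DBA-sorted cells, 3611 ± 776 CPM in neutrophils, 208 ± 72.3 CPM in Ly6Chi macrophages and 191 ± 70.3 CPM in Ly6Clo macrophages (SD, n = 4 libraries each). ADAMTS transcripts summed to 725 ± 210 CPM in DBA-sorted cells, 114 ± 21.1 CPM in neutrophils, 120 ± 7.80 CPM in Ly6Chi and 216 ± 108 CPM in Ly6Clo macrophages. The 4 TIMPs together stood at 354 ± 28.4 CPM in DBA-sorted cells, 152 ± 17.4 CPM in neutrophils, 43.0 ± 4.46 CPM in Ly6Chi and 36.6 ± 10.1 CPM in Ly6Clo macrophages. ADAM transcripts reached 1647 ± 279 CPM in DBA-sorted cells, 3601 ± 1386 CPM in neutrophils, 882 ± 196 CPM in Ly6Chi and 811 ± 88.4 CPM in Ly6Clo macrophages.

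**Figure D1:**
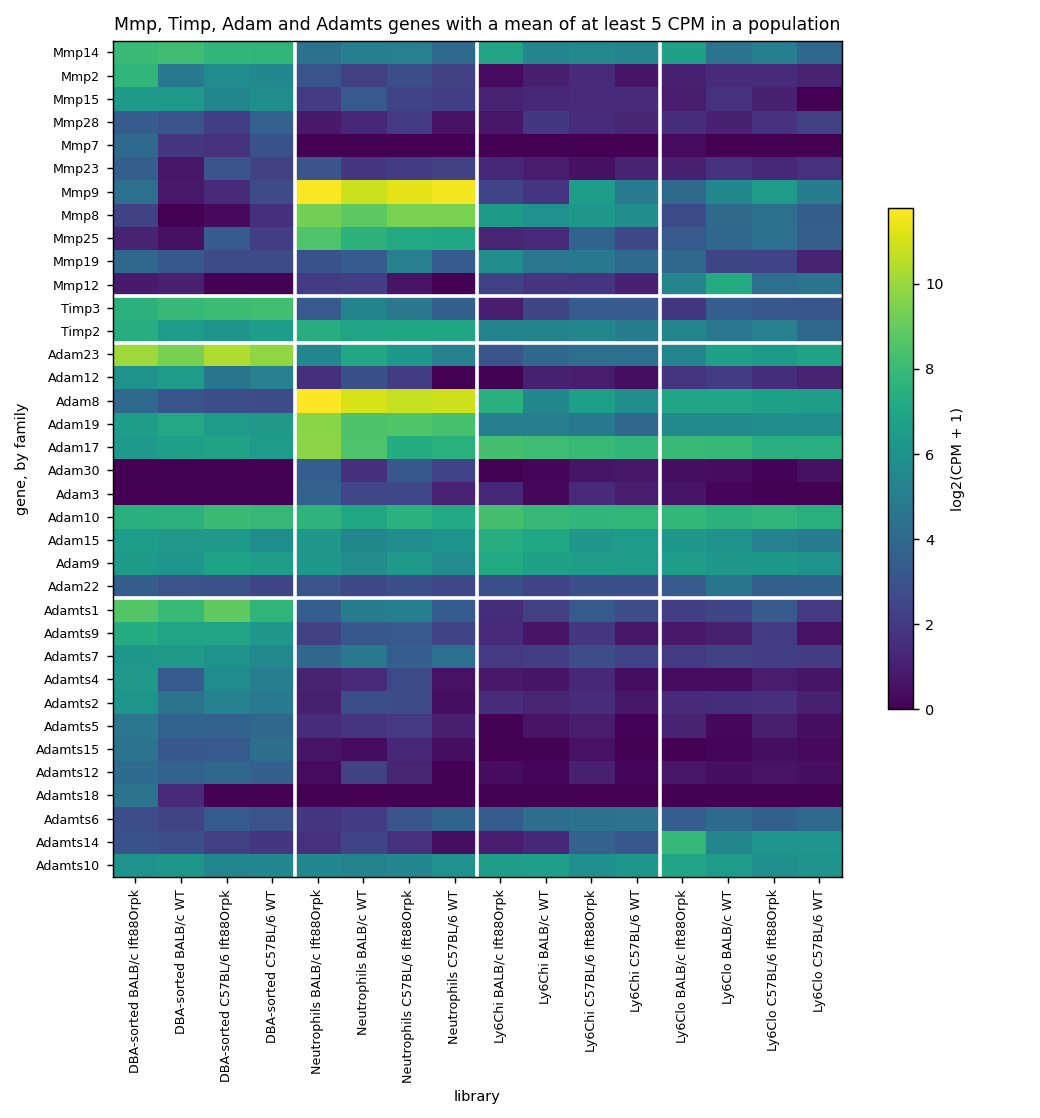
Levels of the 36 members with a mean of at least 5 CPM in a population, as log2(CPM + 1), in the 16 libraries grouped by population. DBA-sorted libraries carry Adamts1, Adamts9, Timp3 and Adam23, and neutrophil libraries Mmp9, Mmp8, Mmp25 and Adam8. In both macrophage populations Adam17 and Adam10 have the highest means, and both genes are also counted in the other populations.

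Per kilobase of exon, 3 genes stood far above the others in neutrophils: Mmp9 at 771 ± 181, Adam8 at 506 ± 174 and Mmp8 at 253 ± 45.1 CPM per kilobase, followed by Adam19 at 66.5 ± 32.8 (SD, n = 4). In DBA-sorted cells the order was flatter, with Adamts1 at 62.4 ± 23.9, Adam23 at 55.2 ± 15.1, Adam10 at 43.6 ± 7.82 and Mmp14 at 40.8 ± 6.602 CPM per kilobase. Each of these differed from the next by less than the larger of their SDs. Adam10 led both macrophage populations, at 49.9 ± 9.21 in Ly6Chi and 39.9 ± 5.29 CPM per kilobase in Ly6Clo. Adam17 came next in both, at 36.9 ± 6.00 in Ly6Chi and 28.8 ± 6.13 CPM per kilobase in Ly6Clo. Mmp8 followed in Ly6Chi at 28.8 ± 5.86 CPM per kilobase, and Adam8 in Ly6Clo at 23.7 ± 2.82 CPM per kilobase.

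Neutrophils were set against each macrophage population with the 4 combinations as blocks, by edgeR's quasi-likelihood test, and a gene was called at a Benjamini-Hochberg adjusted p under 0.05 across every gene of the fit. Both comparisons use the same 4 neutrophil libraries and are not independent. Against Ly6Chi macrophages, 38 members passed the low-count filter. Of these, 19 were higher in neutrophils, where 23.3% of all 15931 genes tested were higher, and 6 were lower, where 24.1% of all genes were lower. The median log2 fold change was 1.72 over the members tested and -0.09 over all genes tested. Without the BALB/c Ift88Orpk pair of libraries, 16 members in place of 25 were called. Against Ly6Clo macrophages, 43 members were tested. There, 15 were higher, beside 23.9% of all 16631 genes, and 7 were lower, beside 25.7% of all genes, with a median log2 fold change of 0.62 over members and -0.16 over all genes.

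The gelatinase Mmp9 showed the largest change of the members named. In the order BALB/c Ift88Orpk, BALB/c WT, C57BL/6 Ift88Orpk and C57BL/6 WT, which is kept below for any 4 values of a population, it was counted at 3391, 1912, 2558 and 3048 CPM in neutrophils. It was counted at 4.37, 2.58, 96.6 and 26.6 CPM in Ly6Chi macrophages and at 15.95, 44.5, 89.1 and 31.1 CPM in Ly6Clo macrophages. No macrophage library came near a neutrophil library, but the macrophage libraries differed widely among themselves. The log2 fold change of neutrophils was 7.71 ± 0.95 over Ly6Chi (SE, edgeR adjusted p = 0.000462) and 6.15 ± 0.52 over Ly6Clo (edgeR adjusted p = 5.02e-05). Within Ly6Chi libraries the summed neutrophil markers followed a similar order, with 527.1, 500.5, 1446 and 1055 CPM. Within Ly6Clo libraries they did not, with 813.8, 1804, 776.3 and 430.3 CPM. The part of these markers in the Mmp9 values was not tested. The other gelatinase, Mmp2, was low in all leukocytes, with 7.39, 3.77, 6.02 and 3.76 CPM in neutrophils against 0.257, 0.999, 1.62 and 0.592 CPM in Ly6Chi and 1.04, 1.73, 1.71 and 1.27 CPM in Ly6Clo. Its log2 fold change was 2.70 ± 0.61 over Ly6Chi and 1.84 ± 0.47 over Ly6Clo (SE, edgeR adjusted p = 0.00707 and 0.0113), and the second call was lost without the BALB/c Ift88Orpk libraries (adjusted p = 0.0518).

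Mmp8, the neutrophil collagenase, was counted at 646, 450, 673 and 681 CPM in neutrophils. Ly6Chi macrophages held 85.8, 60.8, 77.3 and 55.3 CPM and Ly6Clo macrophages 5.28, 15.8, 19.4 and 9.98 CPM. The 3 populations thus formed separate steps, with no overlap between libraries of different populations. Neutrophils exceeded Ly6Chi by a log2 fold change of 3.16 ± 0.19 and Ly6Clo by 5.74 ± 0.38 (SE, edgeR adjusted p = 2.65e-05 and 1.91e-05). Within each strain the Ly6Chi library with more Mmp8 also had the larger sum of neutrophil markers, given above. Across strains this did not hold: BALB/c Ift88Orpk had the most Mmp8 but a sum of 527.1 CPM, against 1446 CPM in C57BL/6 Ift88Orpk. The part of these markers was not tested. Mmp25, a membrane-anchored MMP of neutrophils, was counted at 369, 189, 140 and 131 CPM in neutrophils, against 1.35, 1.68, 12.3 and 4.82 CPM in Ly6Chi and 9.25, 14.7, 18.9 and 11.02 CPM in Ly6Clo. Its fold changes were 5.68 ± 0.73 over Ly6Chi and 3.86 ± 0.37 over Ly6Clo on the log2 scale (SE, edgeR adjusted p = 0.000568 and 9.91e-05).

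Adam8, a leukocyte sheddase, had 3527, 2149, 1724 and 1985 CPM in neutrophils. It had 178, 44.7, 102 and 58.2 CPM in Ly6Chi and 121, 121, 104 and 94.4 CPM in Ly6Clo macrophages. The neutrophil libraries lay 4.79 ± 0.32 above Ly6Chi and 4.39 ± 0.23 above Ly6Clo on the log2 scale (SE, edgeR adjusted p = 3.27e-05 and 1.22e-05). Adam19, a protease known for shedding neuregulins, had 822, 364, 381 and 326 CPM in neutrophils against 32.8, 32.6, 26.0 and 13.6 CPM in Ly6Chi and 49.5, 48.8, 57.7 and 55.5 CPM in Ly6Clo. It rose by 4.17 ± 0.25 over Ly6Chi and 3.07 ± 0.27 over Ly6Clo (log2, SE, edgeR adjusted p = 2.64e-05 and 5.79e-05). All neutrophil libraries were above all macrophage libraries for both genes.

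Adam3 and Adam30, known mainly from testis, were low but unevenly spread. Adam3 had 12.1, 4.65, 4.79 and 1.25 CPM in neutrophils, 1.54, 0.210, 1.66 and 0.845 CPM in Ly6Chi and 0.605, 0.153, 0.0311 and 0 CPM in Ly6Clo. Adam30 had 10.3, 2.05, 8.36 and 4.13 CPM in neutrophils, 0, 0.158, 0.580 and 0.676 CPM in Ly6Chi and 0.346, 0.305, 0.0933 and 0.441 CPM in Ly6Clo. Both were called higher in neutrophils than in Ly6Clo macrophages (log2 fold changes 5.29 ± 0.72 and 4.27 ± 0.72, SE, edgeR adjusted p = 0.000509 and 0.00155). The call of Adam3 over Ly6Chi (2.36 ± 0.67, SE, edgeR adjusted p = 0.0197) was lost without either BALB/c pair (adjusted p = 0.11 without Ift88Orpk and 0.0501 without WT). Both had 0 counts in the 4 DBA-sorted libraries. With a floor of 3 counts over those 4 libraries, neutrophils were at least 153-fold higher for Adam3 (300 counts) and at least 167-fold higher for Adam30 (315 counts).

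A second group of members rose in neutrophils from low levels and is much higher in DBA-sorted cells. Adamts1, an early-response proteoglycanase, had 10.4, 29.6, 33.4 and 9.76 CPM in neutrophils against 1.93, 3.73, 8.98 and 6.00 CPM in Ly6Chi and 3.502, 4.53, 9.36 and 2.92 CPM in Ly6Clo. Its log2 fold change was 2.04 ± 0.38 over Ly6Chi and 1.99 ± 0.28 over Ly6Clo (SE, edgeR adjusted p = 0.00308 and 0.000676). Timp3 had 8.81, 38.9, 24.7 and 11.1 CPM in neutrophils and rose by 1.98 ± 0.51 over Ly6Chi and 1.43 ± 0.29 over Ly6Clo (log2, SE, edgeR adjusted p = 0.0131 and 0.0038). Both genes were highest in the BALB/c WT and C57BL/6 Ift88Orpk neutrophil libraries. The 11 endothelial markers, all at or above 1 CPM, summed to 809.5, 3099, 1925 and 726.8 CPM in the same 4 libraries. There, 12 hepatocyte markers summed to 2810, 5674, 3720 and 2527 CPM, and 8 Kupffer markers to 206.1, 712.0, 468.2 and 222.3 CPM. These sums too were highest in BALB/c WT and C57BL/6 Ift88Orpk. Those of 8 B cell markers were not, at 71.63, 328.1, 124.7 and 181.6 CPM. The part of these markers in these results was not tested. Over Ly6Chi, the Timp3 call was lost without either BALB/c pair (adjusted p = 0.0524 without Ift88Orpk and 0.0551 without WT).

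Adamts9, Adamts7 and Adam23 were also above Ly6Chi in neutrophils. Adamts9 had 3.98, 8.25, 8.91 and 4.38 CPM in neutrophils and rose by 2.38 ± 0.55 over Ly6Chi and 2.47 ± 0.47 over Ly6Clo (log2, SE, edgeR adjusted p = 0.00801 and 0.00271). Adamts7, which cuts cartilage oligomeric matrix protein, averaged 17.4 ± 6.35 CPM in neutrophils, 4.18 ± 1.32 CPM in Ly6Chi and 3.44 ± 0.411 CPM in Ly6Clo (SD, n = 4). It rose by 2.05 ± 0.37 and 2.28 ± 0.30 on the log2 scale (SE, edgeR adjusted p = 0.00261 and 0.000418). Adam23 had 43.8, 131, 77.0 and 35.9 CPM in neutrophils and was above Ly6Chi (2.18 ± 0.35, log2 and SE, edgeR adjusted p = 0.00142) but not called against Ly6Clo (-0.31 ± 0.31, edgeR adjusted p = 0.422).

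Timp2, the inhibitor that also takes part in MMP2 activation, was also higher in neutrophils. It had 162, 116, 122 and 119 CPM in neutrophils, 38.9, 37.1, 39.8 and 30.3 CPM in Ly6Chi and 40.8, 25.4, 34.2 and 14.3 CPM in Ly6Clo macrophages. All neutrophil libraries were above all macrophage libraries, by 1.85 ± 0.16 over Ly6Chi and 2.28 ± 0.23 over Ly6Clo on the log2 scale (SE, edgeR adjusted p = 8e-05 and 0.000117). Timp1 and Timp4 stayed below 2 CPM in every leukocyte library.

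Fewer members were lower in neutrophils. Adamts6 had 2.65, 3.21, 7.44 and 13.02 CPM in neutrophils against 9.70, 17.9, 20.3 and 21.3 CPM in Ly6Chi and 10.6, 16.5, 11.8 and 15.1 CPM in Ly6Clo. It fell by 1.59 ± 0.33 relative to Ly6Chi and by 1.27 ± 0.40 relative to Ly6Clo (log2, SE, edgeR adjusted p = 0.00469 and 0.0288), and each pair of libraries went the same way. Relative to Ly6Chi, the somatic proteases Adam9 (-0.70 ± 0.17), Adam15 (-0.88 ± 0.23) and Adam10 (-0.55 ± 0.16) and the membrane-type Mmp14 (-1.10 ± 0.36) were also lower (log2, SE, edgeR adjusted p = 0.0105, 0.0144, 0.0229 and 0.0351). Adamts10, known from fibrillin microfibrils, averaged 46.6 ± 9.71 CPM in neutrophils, 82.2 ± 18.6 CPM in Ly6Chi and 83.7 ± 28.2 CPM in Ly6Clo (SD, n = 4). It was lower in neutrophils than in both (-0.79 ± 0.21 and -0.79 ± 0.24, log2 and SE, edgeR adjusted p = 0.0156 and 0.0236), with overlapping groups, and both calls were lost without either BALB/c pair (adjusted p between 0.0685 and 0.0906). Of the calls against Ly6Chi, those of Adam10, Adam15 and Mmp14 were lost without the BALB/c Ift88Orpk pair, at adjusted p = 0.0682, 0.0659 and 0.0879. They were also lost for Adam10 without either WT pair, for Adam15 without the BALB/c WT pair and for Mmp14 without the C57BL/6 WT pair, and the Adamts6 call against Ly6Clo was lost without either BALB/c pair (adjusted p = 0.108 without Ift88Orpk and 0.107 without WT). Relative to Ly6Clo, the neutrophil libraries fell furthest in Adamts14 and Mmp12, described next.

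**Figure D2:**
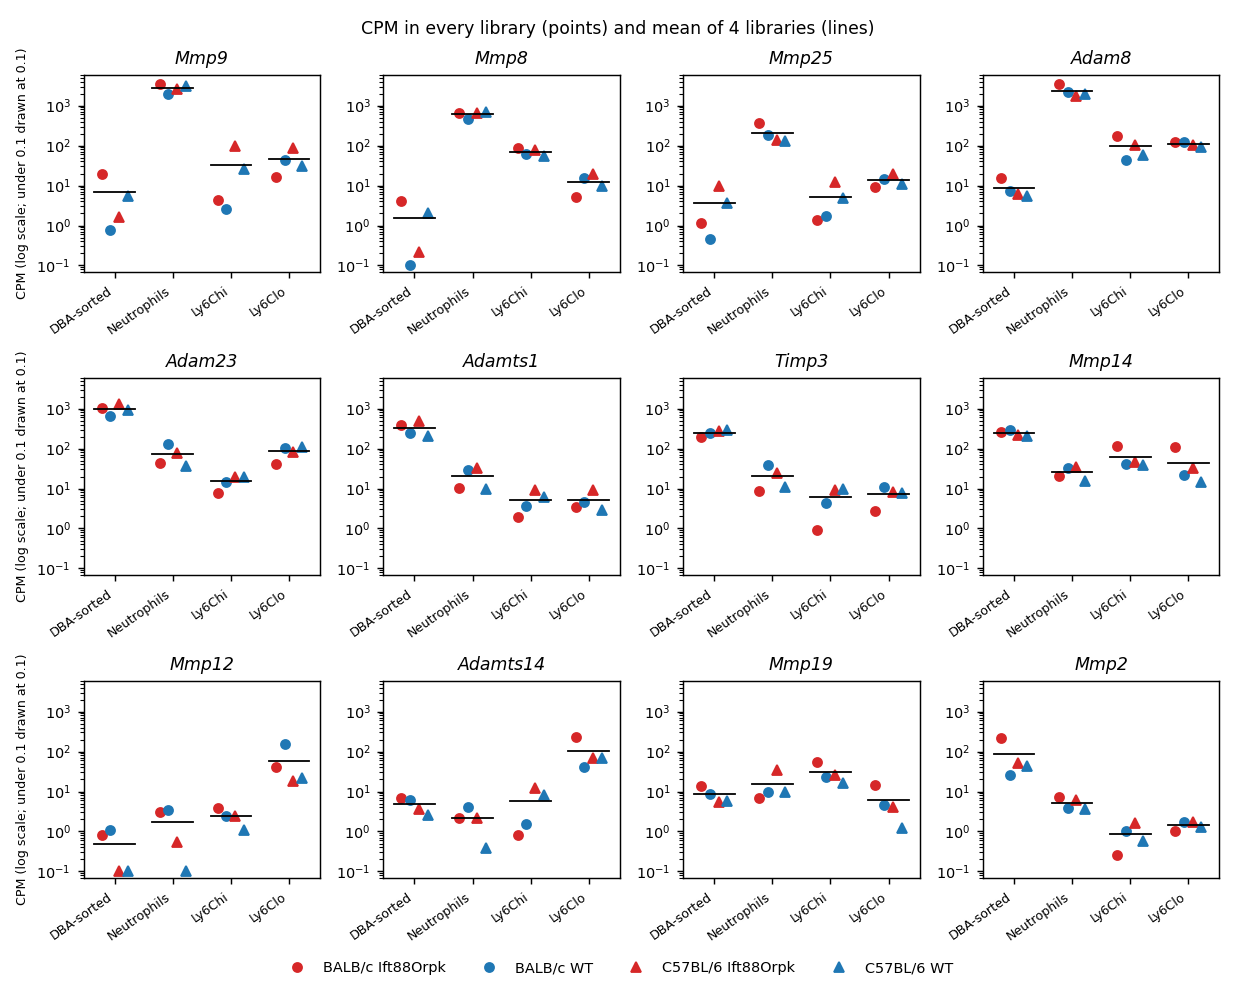
CPM on a log axis of 12 members in the 16 libraries, with 1 point per library and values under 0.1 CPM drawn at 0.1. Mmp9, Mmp25 and Adam8 are highest in all 4 neutrophil libraries, Adamts1, Timp3, Adam23 and Mmp14 in all 4 DBA-sorted libraries, and Mmp12 and Adamts14 in all 4 Ly6Clo libraries.

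The macrophage populations differed in a smaller set. Of 37 members tested, 7 were higher in Ly6Chi than in Ly6Clo macrophages, beside 12.3% of all 16664 genes tested, and 8 were lower, beside 12.2% of all genes, with a median log2 fold change of -0.05 over members and -0.01 over all genes. Without the block of combinations the members called numbered 7, so this comparison rests on the pairing of libraries within a combination. Mmp12 and Adamts14 fell furthest in Ly6Chi. Mmp12, the macrophage elastase, had 3.92, 2.42, 2.44 and 1.10 CPM in Ly6Chi against 39.9, 153, 18.5 and 21.8 CPM in Ly6Clo. Adamts14, a procollagen N-proteinase, had 0.835, 1.52, 11.96 and 8.20 CPM in Ly6Chi against 233, 41.7, 69.1 and 69.6 CPM in Ly6Clo. For both genes every Ly6Clo library was above every Ly6Chi library, and 1 library stood far above the rest of Ly6Clo, a different one for each gene. The log2 fold changes were -4.12 ± 0.46 for Mmp12 and -4.16 ± 0.72 for Adamts14 (SE, edgeR adjusted p = 0.000479 and 0.0037). In neutrophils, relative to Ly6Clo, they were -5.02 ± 0.49 and -5.29 ± 0.62 (SE, edgeR adjusted p = 0.000108 and 0.000251).

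The 3 ADAMs without a working catalytic site all fell in Ly6Chi relative to Ly6Clo macrophages. Adam23 had 7.65, 14.4, 19.7 and 18.9 CPM in Ly6Chi against 41.9, 106, 84.2 and 111 CPM in Ly6Clo, a log2 fold change of -2.51 ± 0.14 (SE, edgeR adjusted p = 2.24e-05). Adam22 averaged 5.80 ± 0.956 CPM in Ly6Chi and 14.0 ± 6.23 CPM in Ly6Clo (SD, n = 4), and Adam11 0.441 ± 0.301 CPM in Ly6Chi and 4.95 ± 3.14 CPM in Ly6Clo. Their log2 fold changes were -1.20 ± 0.30 and -3.34 ± 0.57 (SE, edgeR adjusted p = 0.0195 and 0.0035). The call of Adam22 was lost without the C57BL/6 Ift88Orpk pair (adjusted p = 0.0557). Markers of other leukocytes were lower in Ly6Chi as well. Ly6Chi libraries held 7.15-145 CPM of 11 T and NK markers, 28.4-114 CPM of 8 dendritic markers and 85.1-148 CPM of 8 B cell markers. Ly6Clo libraries held 187-969 CPM, 274-656 CPM and 148-240 CPM of these. Among the Ly6Clo libraries the T and NK sums were 910.5, 186.9, 891.8 and 969.1 CPM, not in the order of Adam23. The dendritic sums there were 273.5, 579.4, 500.8 and 656.2 CPM, in the order of Adam23. Their part in the Ly6Clo values was not tested. Adam19 and Mmp25 were lower in Ly6Chi as well, by log2 fold changes of -1.08 ± 0.22 and -1.84 ± 0.42 (SE, edgeR adjusted p = 0.00802 and 0.013).

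Mmp19 and Mmp8 rose most in Ly6Chi macrophages. Mmp19, a secreted MMP of wide substrate range, had 54.7, 23.6, 26.3 and 16.3 CPM in Ly6Chi against 14.6, 4.47, 4.17 and 1.21 CPM in Ly6Clo, with a log2 fold change of 2.56 ± 0.26 (SE, edgeR adjusted p = 0.000279). Every Ly6Chi library was above every Ly6Clo library, and within each population the BALB/c Ift88Orpk library was the highest. Exons of the opposite-strand genes Gm47093 and Tmem198b together cover 28.3% of the Mmp19 exons, and whether the counting used strand is not given in the sources used here. Mmp8 was 2.55 ± 0.31 higher on the log2 scale (SE, edgeR adjusted p = 0.000715). Adam15 had 159, 135, 76.7 and 86.5 CPM in Ly6Chi against 78.1, 65.7, 35.9 and 30.9 CPM in Ly6Clo (log2 fold change 1.14 ± 0.10, SE, edgeR adjusted p = 0.000152). Opposite-strand exons cover 20.6% of the Adam15 exons, with the same limit. The populations overlap in Adam15 across strains, while within each combination Ly6Chi was higher.

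Smaller differences in the same direction were called for the sheddases Adam9 (0.43 ± 0.08), Adam17 (0.36 ± 0.08) and Adam10 (0.30 ± 0.09) and for Mmp14 (0.70 ± 0.19), with edgeR adjusted p of 0.00534, 0.00988, 0.0366 and 0.0272 (log2, SE). The Adam10 and Mmp14 calls were each lost when 1 of 3 combinations was left out, and the Adam17 call without C57BL/6 Ift88Orpk (adjusted p = 0.0611). Mmp14, the membrane-type collagenase that activates pro-MMP2, had 116, 40.3, 46.3 and 39.8 CPM in Ly6Chi against 108, 22.3, 31.9 and 14.9 CPM in Ly6Clo. In both populations the BALB/c Ift88Orpk library was the highest. Adam8 and Timp2 were not called between the macrophage populations, with log2 fold changes of -0.40 ± 0.27 and 0.42 ± 0.18 (SE, edgeR adjusted p = 0.341 and 0.125).

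The DBA-sorted libraries were set against the mean of the 3 leukocyte populations. Of 52 members tested, 26 were higher in DBA-sorted cells, beside 31.1% of all 19183 genes tested, and 9 were lower, beside 28.4% of all genes. The median log2 fold change was 1.18 over members and 0.02 over all genes. ADAMTS genes accounted for 12 of the members that rose, out of 16 ADAMTS genes tested, with 1 lower. Among ADAMs, 2 of 15 tested were higher and 4 lower, and among MMPs 9 of 18 were higher and 4 lower. All 3 TIMPs tested were higher. These libraries also held endothelial and stromal markers, as given above, so the sorted gate rather than one cell type is compared.

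All 6 proteoglycan-cutting ADAMTS genes that were tested rose in DBA-sorted cells. Adamts1 had 394, 242, 478 and 210 CPM there, against a lowest, median and highest value of 1.93, 7.49 and 33.4 CPM in the 12 leukocyte libraries (log2 fold change 5.47 ± 0.26, SE, edgeR adjusted p = 7.69e-10). Adamts9 had 156, 116, 116 and 76.2 CPM in DBA-sorted cells against 0.496, 2.15 and 8.91 CPM in leukocytes (5.83 ± 0.28, edgeR adjusted p = 7.34e-10). Adamts4 had 78.9, 9.19, 52.4 and 32.9 CPM against 0.303, 0.689 and 5.28 CPM in leukocytes (5.46 ± 0.39, edgeR adjusted p = 2.37e-08). For these 3 genes no leukocyte library reached the lowest DBA-sorted library, and Adamts4 varied most between DBA-sorted libraries. Adamts15 (6.13 ± 0.59) and Adamts5 (4.40 ± 0.49) rose from lower levels, with means of 14.3 ± 6.59 and 15.9 ± 5.78 CPM in DBA-sorted cells (SD, n = 4; edgeR adjusted p = 5.28e-07 and 2.55e-06). Adamts8 was called at a mean of 1.54 ± 1.46 CPM (3.004 ± 0.942, edgeR adjusted p = 0.0167), a call lost without the BALB/c Ift88Orpk libraries (adjusted p = 0.197).

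Other ADAMTS genes followed. Adamts2, which removes the N-propeptide of fibrillar procollagens, had 72.6, 22.4, 36.0 and 27.3 CPM in DBA-sorted cells against a lowest, median and highest value of 0.376, 1.76 and 6.09 CPM in leukocytes (4.44 ± 0.39, SE, edgeR adjusted p = 2.01e-07). Adamts7 averaged 67.7 ± 14.6 CPM and Adamts12 13.7 ± 2.29 CPM in DBA-sorted cells, with log2 fold changes of 3.44 ± 0.20 and 4.55 ± 0.57 (SE, edgeR adjusted p = 2.88e-09 and 8.59e-06). The procollagen enzyme Adamts14 went the other way, at 4.80 ± 1.98 CPM in DBA-sorted cells (SD, n = 4), without being called (-1.20 ± 0.65, edgeR adjusted p = 0.127). Adamts10 averaged 56.2 ± 16.0 CPM in DBA-sorted cells, between its neutrophil and macrophage means. Adamts6 was the ADAMTS gene called lower (-0.72 ± 0.29, edgeR adjusted p = 0.0477), a call lost when any of 3 combinations was left out. Adamts13, whose product circulates and is made in hepatic stellate cells, was called higher at only 2.07 ± 1.44 CPM (1.61 ± 0.51, edgeR adjusted p = 0.0143), a call lost without either BALB/c combination.

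Among the inhibitors in DBA-sorted cells, Timp3, which binds to matrix, and Timp2 lay within their SDs, at 30.5 ± 5.66 and 26.2 ± 10.2 CPM per kilobase (SD, n = 4). Timp3 had 190, 239, 268 and 299 CPM there against a lowest, median and highest value of 0.900, 9.13 and 38.9 CPM in leukocytes (4.90 ± 0.30, SE, edgeR adjusted p = 5.91e-09). Its opposite-strand neighbour Syn3 covers 21.3% of the Timp3 exons, and without a stated strand setting reads of the pair cannot be told apart. Timp2 had 159, 89.3, 67.8 and 92.3 CPM in DBA-sorted cells against 14.3, 39.4 and 162 CPM in leukocytes. The groups overlapped, because neutrophils were as high, and the call (0.99 ± 0.17, edgeR adjusted p = 0.000171) is against the mean of the leukocyte populations. Timp1, the inhibitor known to rise in fibrotic liver, was low throughout, at 4.38, 1.004, 1.51 and 1.85 CPM in DBA-sorted cells and at most 1.80 CPM in leukocytes (2.53 ± 0.64, edgeR adjusted p = 0.00358). The brain and heart inhibitor Timp4 reached 0.927 CPM at most and was not tested in this comparison.

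Among MMPs, the gelatinase Mmp2 and the membrane-type Mmp14 and Mmp15 set DBA-sorted cells apart. Mmp14 had 263, 289, 214 and 207 CPM there against a lowest, median and highest value of 14.9, 33.6 and 116 CPM in leukocytes (2.77 ± 0.29, SE, edgeR adjusted p = 1.34e-06). Mmp15 had 79.9, 78.5, 42.0 and 58.1 CPM against 0, 1.67 and 8.81 CPM in leukocytes (5.11 ± 0.36, edgeR adjusted p = 1.88e-08). Mmp2 had 218, 26.3, 52.0 and 43.8 CPM against 0.257, 1.66 and 7.39 CPM in leukocytes (5.22 ± 0.40, edgeR adjusted p = 4.99e-08). The groups did not overlap for these 3 genes, and the BALB/c Ift88Orpk library stood apart in Mmp2. Mmp7 (matrilysin, known from epithelia) had 15.1, 2.61, 2.24 and 6.92 CPM in DBA-sorted cells and 0 CPM in 11 of 12 leukocyte libraries, with 0.259 CPM in the other one, and was called higher (edgeR adjusted p = 1.86e-05).

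Lower in DBA-sorted cells were the neutrophil genes Mmp8 (-5.83 ± 0.76), Adam8 (-5.12 ± 0.29), Mmp9 (-4.49 ± 1.05) and Mmp25 (-3.05 ± 0.62) and the Ly6Clo gene Mmp12 (-3.90 ± 0.62) on the log2 scale (SE, edgeR adjusted p = 1.19e-05, 3.17e-09, 0.0019, 0.000658 and 7.75e-05). In DBA-sorted cells Mmp9 had 19.6, 0.753, 1.64 and 5.44 CPM and Adam8 15.4, 7.43, 6.04 and 5.62 CPM. Both were highest in the BALB/c Ift88Orpk library, in which the 11 neutrophil markers summed to 182 CPM with 10 of them at or above 1 CPM, against 7.53-21 CPM in the other 3 libraries. The part of these markers was not tested.

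Adam23 was the most counted member in DBA-sorted cells. It had 1059, 665, 1312 and 915 CPM there against a lowest, median and highest value of 7.65, 42.8 and 131 CPM in leukocytes (4.58 ± 0.27, SE, edgeR adjusted p = 4.17e-09). Adam12, a protease of stromal and developing tissue, had 65.7, 89.7, 22.9 and 34.0 CPM against 0, 1.56 and 6.26 CPM in leukocytes (5.19 ± 0.42, edgeR adjusted p = 8.07e-08). These were the ADAMs that rose. Adam9, Adam10, Adam15 and Adam19 were not called, with log2 fold changes between 0.13 and 0.23 (edgeR adjusted p = 0.241, 0.43, 0.378 and 0.361).

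**Figure D3:**
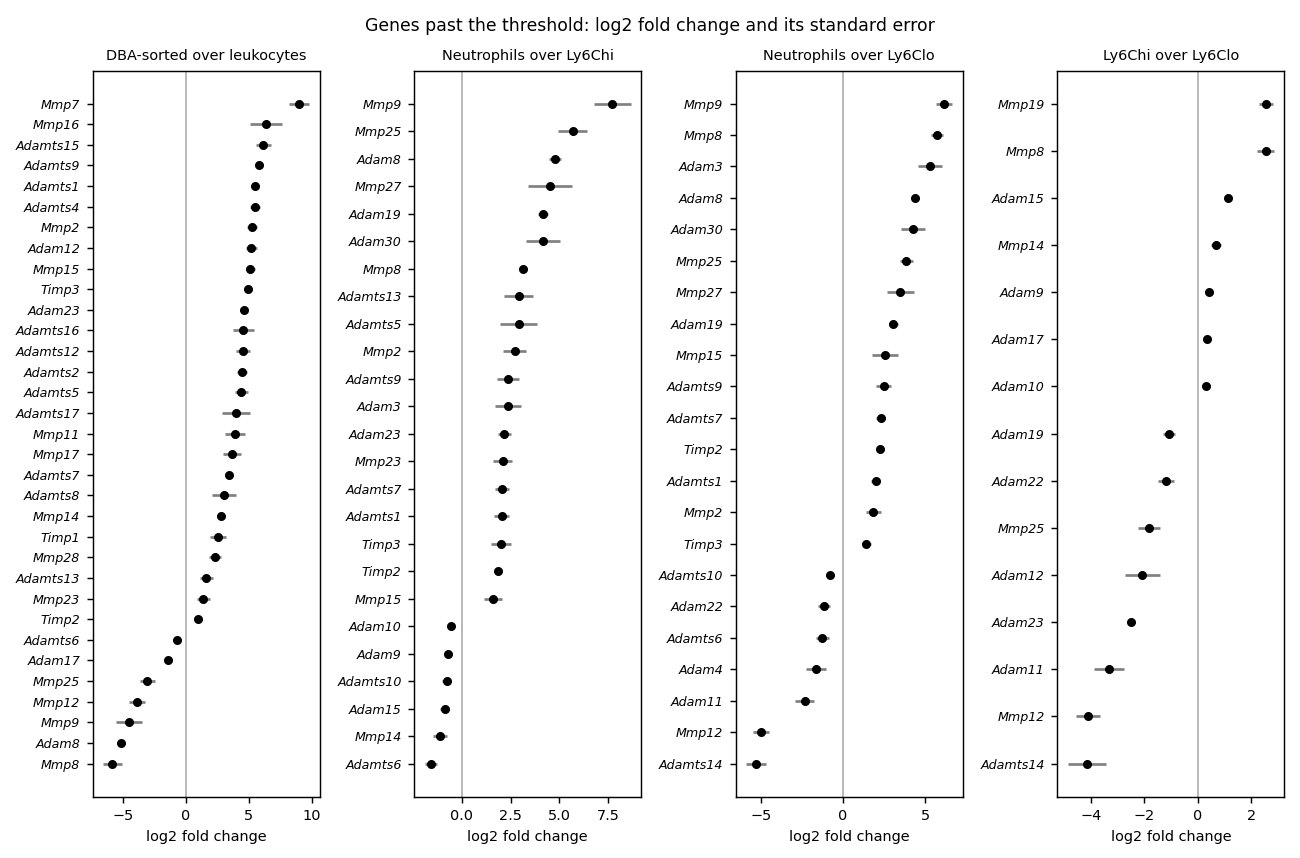
Log2 fold changes with SE of the members called in 4 comparisons: DBA-sorted over leukocytes, neutrophils over Ly6Chi, neutrophils over Ly6Clo and Ly6Chi over Ly6Clo. Adam3 and Adam30, at 0 in DBA-sorted libraries, are left out of the first. Adamts9 and Adam23 are among the members higher in DBA-sorted cells, with Mmp9 at the upper end in both neutrophil comparisons and Mmp12 and Adamts14 at the lower end in Ly6Chi over Ly6Clo.

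The sheddases Adam10 and Adam17 were present in all libraries. Adam10 ranged from 128 CPM, in BALB/c WT neutrophils, to 311 CPM, in BALB/c Ift88Orpk Ly6Chi macrophages. Adam17 had 78.5, 100, 111 and 91.1 CPM in DBA-sorted cells, against 853, 368, 158 and 183 CPM in neutrophils, 316, 279, 243 and 217 CPM in Ly6Chi and 250, 237, 170 and 166 CPM in Ly6Clo. It was lower in DBA-sorted cells than in leukocytes (-1.39 ± 0.30, SE, edgeR adjusted p = 0.000991), and the 2 BALB/c neutrophil libraries stood above all others. Their known partners were read from a list of 9, of which 8 were tested: 3 rose and 3 fell in DBA-sorted cells, beside 31.1% and 28.4% of all genes. Rhbdf1, one of the iRhom proteins that carry ADAM17 to the surface, rose (46.5 ± 11.5 CPM in DBA-sorted cells and 2.55 ± 1.46 CPM in leukocytes, SD, n = 4 and 12; log2 fold change 4.45 ± 0.28, SE, edgeR adjusted p = 7.13e-09). Its paralog Rhbdf2 fell (41.9 ± 12.02 CPM and 177 ± 116 CPM; -1.82 ± 0.15, edgeR adjusted p = 1.42e-07). In neutrophils Rhbdf2 stood at 309 ± 96.0 CPM, in Ly6Chi at 150 ± 31.1 and in Ly6Clo at 72.0 ± 16.7 CPM, with each step called (edgeR adjusted p = 0.002 for neutrophils over Ly6Chi, 5.68e-05 for neutrophils over Ly6Clo and 7.57e-05 for Ly6Chi over Ly6Clo). Of the tetraspanins that accompany ADAM10, Tspan15 rose in DBA-sorted cells (3.95 ± 0.25, edgeR adjusted p = 7.54e-09), and Tspan33 was lower in neutrophils than in Ly6Clo (-3.24 ± 0.27, edgeR adjusted p = 4.6e-05).

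Substrates, inhibitors and activators of these enzymes were read from lists that share genes with marker lists, such as Col1a1 and Dcn with the stellate list and Vcan and Fn1 with the Ly6Chi monocyte list. The counts below stand beside the shares of all genes given above, which were 31.1% higher and 28.4% lower in DBA-sorted cells, 23.3% and 24.1% in neutrophils over Ly6Chi, 23.9% and 25.7% in neutrophils over Ly6Clo, and 12.3% and 12.2% in Ly6Chi over Ly6Clo. Of 17 matrix proteins tested, 14 were higher in DBA-sorted cells and 1 lower: the heparan sulfate proteoglycan Hspg2 averaged 4088 ± 820 CPM there and 134 ± 151 CPM in leukocytes, whereas thrombospondin Thbs1 fell to 73.0 ± 54.0 CPM in DBA-sorted cells, against 980 ± 919 CPM in leukocytes (SD, n = 4 and 12; edgeR adjusted p = 3.27e-10 and 0.000182). Versican, a substrate of several ADAMTS enzymes, was 5.72 ± 0.79 higher in Ly6Chi than in Ly6Clo on the log2 scale (SE, edgeR adjusted p = 0.0013), where 3 of 16 matrix genes rose and 1 fell. Of 9 further inhibitors tested, 8 were higher in DBA-sorted cells and none lower. Reck, a membrane-bound MMP inhibitor, had 10.8 ± 1.53 CPM in neutrophils, 0.908 ± 0.429 CPM in Ly6Chi and 2.86 ± 0.933 CPM in Ly6Clo (SD, n = 4), and neutrophils were higher than both (edgeR adjusted p = 0.000321 and 0.00214).

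In the plasminogen and proprotein convertase list, which includes enzymes that activate pro-MMPs, 8 of 16 genes were higher and 3 lower in DBA-sorted cells. Plaur, the urokinase receptor, had 1243 ± 485 CPM in neutrophils, 284 ± 29.3 CPM in Ly6Chi and 142 ± 11.4 CPM in Ly6Clo, against 19.8 ± 6.58 CPM in DBA-sorted cells (SD, n = 4). Furin, which cuts the propeptide of ADAMs and membrane-type MMPs, was 735 ± 186 CPM in neutrophils, 350 ± 83.3 CPM in Ly6Chi and 199 ± 43.8 CPM in Ly6Clo. Both differed between each pair of these leukocyte populations, with edgeR adjusted p between 2.65e-05 and 0.00119. Among 19 surface proteins known to be shed, 9 were higher and 4 lower in neutrophils than in Ly6Chi. Tnf had 142 ± 82.9 CPM in neutrophils and 18.9 ± 4.18 CPM in Ly6Chi (SD, n = 4 each; log2 fold change 2.80 ± 0.28, SE, edgeR adjusted p = 0.00018). Against Ly6Clo, neutrophils were higher in 9 of 19 and lower in 5. Ly6Chi macrophages were higher than Ly6Clo in 8 of 19 and lower in 3, which were Cd163, Cxcl16 and Cx3cl1. In DBA-sorted cells, 7 of 20 were higher and 10 lower, and 10 of 12 other metzincins and ADAMTS-like genes were higher and 1 lower.

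On chromosome 9, 9 Mmp genes lie at chr9:7272514-7699585 (GRCm38). Of these, Mmp12 and Mmp13 were highest in Ly6Clo, Mmp8 and Mmp27 in neutrophils and Mmp7 in DBA-sorted cells, whereas Mmp1b, Mmp10 and Mmp20 had no count in any library. Mmp27 averaged 2.96 ± 1.98 CPM in neutrophils (SD, n = 4), with 0 in the C57BL/6 WT library. On chromosome 8, Adam9 was counted at 65.1-107 CPM on average in every population, next to Adam3, seen mainly in neutrophils, and Adam18, which had 29 counts in neutrophils and none elsewhere. The other 8 Adam genes listed on that chromosome from Adam24 onwards had no count at all. These were among 10 ADAM genes at 0 throughout, a group known from testis and epididymis.

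Between strains, no member was called in any population. In DBA-sorted cells 0.297% of 21534 genes were called, in neutrophils 1.34%, in Ly6Chi 0.334% and in Ly6Clo 0.306%. At an unadjusted p under 0.05, 6, 3, 7 and 7 of 57 members tested passed in the same order, beside 9.29%, 12.1%, 7.98% and 7.21% of all genes. DESeq2 called 1, 3, 3 and 1 members, beside 486, 928, 517 and 394 of all genes. Adam17 in neutrophils had 853 and 368 CPM in BALB/c against 158 and 183 CPM in C57BL/6, values that do not overlap (log2 fold change 1.72 ± 0.34, SE, edgeR adjusted p = 0.0603). Without either WT neutrophil library the log2 fold change was 2.42, an estimate that then rests on the Ift88Orpk pair alone (853 and 158 CPM). Adamts6 in neutrophils had 2.65 and 3.21 CPM in BALB/c against 7.44 and 13.02 CPM in C57BL/6 (-1.76 ± 0.36, edgeR adjusted p = 0.0657). In Ly6Chi macrophages Mmp25 had 1.35 and 1.68 CPM in BALB/c against 12.3 and 4.82 CPM in C57BL/6 (-2.36 ± 0.50, edgeR adjusted p = 0.145), and Adamts14 had 0.835 and 1.52 CPM against 11.96 and 8.20 CPM (-3.08 ± 0.80, edgeR adjusted p = 0.243). For Mmp9 in Ly6Chi (-3.93 ± 1.30, edgeR adjusted p = 0.406), the neutrophil markers were lower in BALB/c as well, with sums of 527.1 and 500.5 CPM against 1446 and 1055 CPM in C57BL/6. Their part was not tested.

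Other strain differences, of genes named from these same values for a large change, were seen as separate values without passing the test. In Ly6Clo macrophages Adam15 had 78.1 and 65.7 CPM in BALB/c against 35.9 and 30.9 CPM in C57BL/6 (1.11 ± 0.29, SE, edgeR adjusted p = 0.298). In the same libraries Mmp12 had 39.9 and 153 CPM in BALB/c against 18.5 and 21.8 CPM in C57BL/6 (1.96 ± 0.60, edgeR adjusted p = 0.396). Adamts18 was counted in BALB/c but not in C57BL/6 DBA-sorted cells. It had 22.3 and 1.61 CPM, 506 counts in all, in the BALB/c libraries and 0 counts in both C57BL/6 libraries, at least 157-fold higher against a floor of 3 counts over the C57BL/6 libraries (edgeR adjusted p = 0.274). Nearly all of the BALB/c level came from the Ift88Orpk library.

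Between genotypes, no member was called in any population, and neither was any gene: 0.0% of 21534 genes in DBA-sorted cells, neutrophils, Ly6Chi and Ly6Clo macrophages alike. At an unadjusted p under 0.05, 2, 3, 2 and 3 of 57 members passed, beside 5.29%, 4.34%, 1.89% and 1.62% of all genes, and DESeq2 called 0 members in each and 83, 26, 3 and 11 of all genes. With 2 pools of each genotype per population, differences of the sizes below could not be told from the spread between libraries. Members with the largest differences of 1 direction in both strains are given as values.

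In DBA-sorted cells, Mmp2, Mmp23, Adamts1, Adamts2, Adamts4 and Adam23 had a larger value in Ift88Orpk within both strains, whereas Mmp14 did so in C57BL/6 and Mmp15 in BALB/c alone. Mmp2 had 218 and 52.0 CPM in BALB/c and C57BL/6 Ift88Orpk against 26.3 and 43.8 CPM in BALB/c and C57BL/6 WT (1.65 ± 0.77, SE, edgeR adjusted p = 0.963). Adamts4 had 78.9 and 52.4 CPM in Ift88Orpk against 9.19 and 32.9 CPM in WT (1.88 ± 0.84, edgeR adjusted p = 0.955). Adamts1 had 394 and 478 CPM in Ift88Orpk against 242 and 210 CPM in WT (0.95 ± 0.70, edgeR adjusted p = 1). Mmp23 had 10.69 and 7.24 CPM in Ift88Orpk against 0.653 and 4.02 CPM in WT (2.37 ± 1.05, edgeR adjusted p = 0.953). For these 4 genes neither Ift88Orpk value fell within the range of the WT values. They were named from these same values for a large difference of 1 direction, so their separation is no further result. The share of all genes separated in this way was not counted. Adamts2 averaged 54.3 CPM in Ift88Orpk and 24.9 CPM in WT, and Adam23 1186 CPM in Ift88Orpk and 789.6 CPM in WT (n = 2 each, edgeR adjusted p = 1 for both). The 12 stellate and fibroblast markers, all at or above 1 CPM in each library, summed to 9829 and 4258 CPM in Ift88Orpk against 1904 and 2145 CPM in WT, and their part was not tested. Mmp24 had 1.79 and 1.21 CPM in Ift88Orpk and 0 counts in both WT libraries, at least 18.0-fold higher against a floor of 3 counts over the WT libraries (edgeR adjusted p = 0.93).

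In macrophages, Mmp14 and Mmp19 had larger values in Ift88Orpk in both strains. In Ly6Clo, Mmp14 had 108 and 31.9 CPM in Ift88Orpk against 22.3 and 14.9 CPM in WT (1.69 ± 0.49, SE, edgeR adjusted p = 1), and Mmp19 had 14.6 and 4.17 CPM against 4.47 and 1.21 CPM in WT (1.74 ± 0.53, edgeR adjusted p = 1). Within each strain the Ift88Orpk library was higher, while the groups overlapped across strains for Mmp19. Timp2 in Ly6Clo had 40.8 and 34.2 CPM in Ift88Orpk against 25.4 and 14.3 CPM in WT (0.97 ± 0.32, edgeR adjusted p = 1). In Ly6Chi, Mmp14 had 116 and 46.3 CPM in Ift88Orpk against 40.3 and 39.8 CPM in WT (0.87 ± 0.48, edgeR adjusted p = 1), and Adam8 had 178 and 102 CPM against 44.7 and 58.2 CPM in WT (1.397 ± 0.381, edgeR adjusted p = 1). Mmp9 averaged 50.5 CPM in Ift88Orpk and 14.6 CPM in WT Ly6Chi, Mmp8 81.6 CPM in Ift88Orpk and 58.0 CPM in WT, and Timp3 5.17 CPM in Ift88Orpk and 6.97 CPM in WT (n = 2 each, edgeR adjusted p = 1 for all 3). Summed Ly6Chi monocyte markers in the Ly6Clo libraries were 2495 and 1273 CPM in Ift88Orpk against 1406 and 1077 CPM in WT, and their part was not tested.

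Values of the opposite direction were found for Mmp12 and Adam23 in Ly6Clo macrophages. Mmp12 had 39.9 and 18.5 CPM in Ift88Orpk against 153 and 21.8 CPM in WT (-1.09 ± 0.59, SE, edgeR adjusted p = 1), and Adam23 had 41.9 and 84.2 CPM against 106 and 111 CPM in WT (-0.87 ± 0.55, edgeR adjusted p = 1). The 8 dendritic markers summed to 273.5 and 500.8 CPM in these Ift88Orpk libraries against 579.4 and 656.2 CPM in WT, and their part was not tested. In neutrophils, Adam9 had 78.1 and 79.1 CPM in Ift88Orpk against 53.6 and 49.7 CPM in WT (0.61 ± 0.19, edgeR adjusted p = 1), a narrow spread within each genotype. Adam19 had 822 and 381 CPM in Ift88Orpk neutrophils against 364 and 326 CPM in WT (0.70 ± 0.32, edgeR adjusted p = 1). Adamts7 had 14.8 and 10.5 CPM in Ift88Orpk neutrophils against 25.5 and 18.7 CPM in WT (-0.81 ± 0.28, edgeR adjusted p = 1). Adam3 had 12.1 and 4.79 CPM in Ift88Orpk neutrophils against 4.65 and 1.25 CPM in WT (1.64 ± 0.93, edgeR adjusted p = 1). Adam30 averaged 9.34 CPM in Ift88Orpk and 3.09 CPM in WT neutrophils, and Mmp2 6.71 CPM in Ift88Orpk and 3.76 CPM in WT (n = 2 each, edgeR adjusted p = 1 for both).

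**Figure D4:**
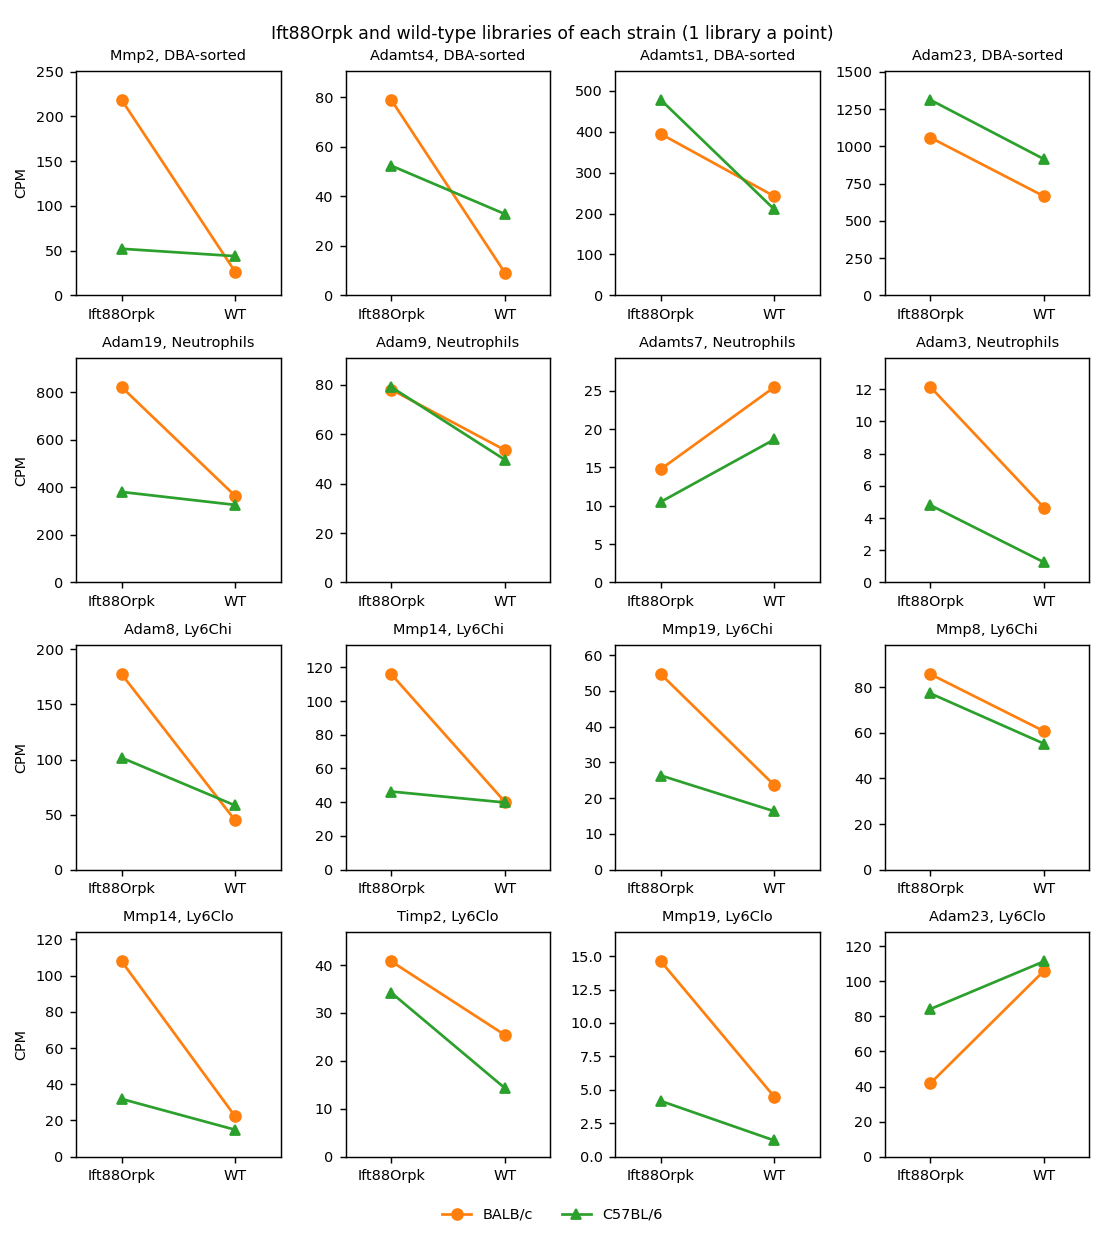
CPM of 16 member and population pairs in Ift88Orpk and WT libraries, with 1 line per strain joining its 2 libraries. Mmp14 in Ly6Clo is at 108 and 31.9 CPM in Ift88Orpk and at 22.3 and 14.9 CPM in WT, whereas Adam23 in Ly6Clo lies lower in Ift88Orpk in both strains.

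Whether the genotype difference differed between strains was tested with 1 term shared by the 4 populations. With 1 pool per combination in each population, this term has no replicate within a population. Its SE and p measure the spread between populations of different cells, not between mice or pools of 1 population. No member and 0.0% of all genes were called. Of 57 members, 8 passed an unadjusted p under 0.05, beside 5.58% of all genes. DESeq2 called 2 members, Timp3 and Adamts1, beside 227 of all genes. Without any 1 of the 4 DBA-sorted libraries, edgeR gave the same estimates each time, -2.56 ± 0.32 for Timp3 and -2.36 ± 0.36 for Adamts1. The DBA-sorted libraries left then add nothing to the shared term, so these 4 fits are 1 result of the leukocyte libraries. With all libraries the values were -1.865 ± 0.468 for Timp3 and -1.798 ± 0.423 for Adamts1 (SE, edgeR adjusted p = 0.452 and 0.416). In neutrophils Adamts1 had 10.4 CPM in Ift88Orpk and 29.6 CPM in WT of BALB/c, but 33.4 CPM in Ift88Orpk and 9.76 CPM in WT of C57BL/6. In DBA-sorted cells it was higher in Ift88Orpk in both strains. The endothelial markers of the neutrophil libraries crossed in the same way. They summed to 809.5 CPM in Ift88Orpk and 3099 CPM in WT of BALB/c, against 1925 CPM in Ift88Orpk and 726.8 CPM in WT of C57BL/6. Sums of hepatocyte and Kupffer markers there, given above, crossed as well, whereas those of B cell markers did not. The part of these markers was not tested.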

How the data were processed

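RNA of 4 sorted liver populations was sequenced as 16 pooled libraries. The deposited values are whole-number read counts per Ensembl gene: per the labels, reads were aligned with STAR to GRCm38 and counted with HTSeq, and no normalization was applied to the counts. The strand setting of the counting is not given in the sources used here. Symbols and exon lengths came from GENCODE M21, which matched 48349 of 48795 gene identifiers. The 5 summary lines of each count column stayed out of library sizes. Between 44.75% and 57.28% of reads were in genes, and 29.08-45.18% were in no annotated feature.

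Counts were scaled with TMM factors and tested with edgeR 4.0.16 (quasi-likelihood, R 4.3.3) on all genes that passed its expression filter, with Benjamini-Hochberg adjustment and a threshold of 0.05. Population comparisons were blocked by combination of strain and genotype, since libraries of a combination share strain and genotype, which the labels give. Strain and genotype contrasts came from 1 fit of all 16 libraries. With 1 pooled library per combination and population, p-values measure the spread between these libraries. DESeq2 1.42.0 was an alternative, beside other scaling, filters and left-out libraries. The testing code was checked on simulated counts. Figures used matplotlib 3.10.9.

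CPM are counts scaled to a common library size (TMM-scaled reads counted in genes). Genes named in the population comparisons are called members of at least 5 CPM in the higher group with 1 direction in all 4 combinations, up to 12 at each end. For strain and genotype they are up to 6 with the largest change that keep their direction across the other factor. Mmp14, Timp2, Adam8, Mmp8, the TIMPs, Mmp2, Mmp9, Adam10 and Adam17 are also included in the population comparisons. Mmp24, Mmp27, Adam11, Adam18, Adamts8 and Adamts13 fall outside this rule and were chosen after their values were seen. The same holds for Adam9, Adam15, Adam19, Adamts5, Adamts7, Adamts10 and Adamts14 in DBA-sorted cells, and there by genotype for Mmp14 and Mmp15. Members and gene lists were chosen with earlier results of these data known. Floors of 3 counts cover counting error only.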

Additional observations from a re-analysis of the deposited data

Results flagged for a closer look

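In 90 groups of 4 libraries of 1 population, 1 library stood apart from the other 3 in 11 cases. The libraries of a group differ in strain and genotype, and the genes were partly named for such differences in these same data. The number of cases is therefore not set against a rate by chance. Of these, 6 were BALB/c Ift88Orpk libraries. Which of strain, genotype, pool or library preparation goes with them cannot be told apart with 1 library per combination.

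In DBA-sorted cells, Mmp2 stood at 218.3 CPM in BALB/c Ift88Orpk against 26.26-51.99 CPM in the other 3 libraries, and Adamts18 at 22.32 CPM against 0-1.607 CPM. In BALB/c Ift88Orpk neutrophils, Adam19 was at 822.1 CPM against 326.3-380.8 CPM, and Timp2 at 161.7 CPM against 116.2-121.8 CPM. BALB/c Ift88Orpk also held the high value of Mmp14 in Ly6Chi macrophages, 115.9 CPM against 39.8-46.29 CPM, and of Adamts14 in Ly6Clo macrophages, 232.9 CPM against 41.74-69.62 CPM.

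The BALB/c WT library stood apart for Mmp12 in Ly6Clo macrophages, 153.0 CPM against 18.5-39.91 CPM, for Adam22 in Ly6Clo macrophages, 23.18 CPM against 9.512-11.57 CPM, and for Adam22 in Ly6Chi macrophages, where it was the lowest at 4.363 CPM against 6.233-6.334 CPM. In neutrophils it was the lowest for Mmp8, at 449.9 CPM against 646.3-680.9 CPM. Mmp19 was highest in C57BL/6 Ift88Orpk neutrophils, at 34.16 CPM against 6.727-9.763 CPM.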

How the results depend on the processing

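The combinations served as blocks. Without the replicate block, 33 members in place of 35 were called for DBA-sorted cells, 23 in place of 25 for neutrophils over Ly6Chi, 20 in place of 22 for neutrophils over Ly6Clo and 7 in place of 15 for Ly6Chi over Ly6Clo, where a fit of all 16 libraries called 9. With 1 combination left out, members called ranged over 32-34, 16-23, 16-21 and 11-15 in the same order. For strain, edgeR called no member, whereas fits of the population's 4 libraries alone called 2 in DBA-sorted cells (Adamts18, Adam12) and 1 in Ly6Chi (Mmp9). DESeq2 called 1, 3, 3 and 1 in DBA-sorted, neutrophil, Ly6Chi and Ly6Clo libraries, and no filter called 1 in DBA-sorted cells (Mmp25) and 1 in neutrophils (Adam17). In neutrophils, the filter of 5 CPM called 1 (Adam17) and the strain by genotype term 1 (Mmp12). A strain fit without 1 library of a population rests there on 1 pair, so its member calls are not counted here. For strain by genotype, DESeq2 called 2, and the fits without a DBA-sorted library are described above.

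The sign turned for uncalled values: Adam23 by strain in Ly6Clo (0.008 with the strain by genotype term), Mmp19 by strain in neutrophils (0.0 and 0.001 without either Ift88Orpk library), Adam17 over Ly6Chi (-0.123) and Mmp14 over Ly6Clo (0.269) in neutrophils without BALB/c Ift88Orpk, and Timp1 over Ly6Clo (-0.059) without C57BL/6 WT. Plain CPM gave sums of 2742 (Mmp, neutrophils), 407.0 (Timp, DBA-sorted), 115.9 (Timp, neutrophils), 917.9 (Adam, Ly6Clo) and 89.39 (Adamts, neutrophils). Plain CPM leave out the TMM factors, and the sums given earlier differ from these by those factors alone. In neutrophils the scaled sums were larger, at 3611 CPM for Mmp, 152 CPM for Timp and 114 CPM for Adamts. Over all genes, strain calls were 64, 288, 72 and 66 in DBA-sorted, neutrophil, Ly6Chi and Ly6Clo libraries, against 486, 928, 517 and 394 by DESeq2. Left-out libraries gave 123-133 in neutrophils, 4-11 in Ly6Chi and 5-7 in Ly6Clo, and 4 libraries alone 149 in neutrophils, 359 in Ly6Chi and 158 in Ly6Clo. Without a filter, 124 and 103 were called in Ly6Chi and Ly6Clo. Ly6Chi over Ly6Clo gave 4075 calls, 1467 with all 16 libraries and 1861 without the block. By genotype, 0 calls in DBA-sorted cells became 1 with 4 libraries, 83 by DESeq2 and 0-48 with a library left out. Strain by genotype gave 0, 227 by DESeq2 and 0-187 with a library left out. With 1 library per combination, differences within a strain have no replicate.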

Other observations

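Adam33, an ADAM known from airway smooth muscle, was low in all populations. It was chosen here after its values were seen. In Ly6Chi it had 5.72 and 4.36 CPM in BALB/c against 0.662 and 1.61 CPM in C57BL/6, and in Ly6Clo 6.79 and 3.36 CPM in BALB/c against 1.31 and 0.551 CPM in C57BL/6. DBA-sorted cells had 6.17 and 6.18 CPM in BALB/c against 2.59 and 1.73 CPM in C57BL/6, and neutrophils 3.98 and 2.71 CPM against 1.66 and 1.38 CPM. The BALB/c values were the larger ones in each population, and DESeq2 called Adam33 in Ly6Chi and Ly6Clo (adjusted p = 0.0399 and 0.0213), while edgeR called it in none.

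Strain differences among related genes were called for Plau in Ly6Clo macrophages and Vcan in neutrophils, beside 0.306% and 1.34% of all genes in these populations. Plau, the urokinase protease, averaged 69.9 ± 1.33 CPM in BALB/c and 17.4 ± 6.98 CPM in C57BL/6 Ly6Clo macrophages (SD, n = 2 each, edgeR adjusted p = 0.0413). Vcan averaged 5.39 ± 6.45 CPM in BALB/c and 169 ± 58.1 CPM in C57BL/6 neutrophils (SD, n = 2 each, edgeR adjusted p = 0.0469). It is 1 of the 11 Ly6Chi monocyte markers. In neutrophil libraries these summed to 4911 and 2962 CPM in BALB/c Ift88Orpk and WT, against 5214 and 5934 CPM in C57BL/6. Their part was not tested.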
